A study of Homo sapiens with 8 samples.

Results

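Classical cadherins, catenins and the α-catenin relative CTNNAL1 were followed across 8 Affymetrix expression arrays of PC3 prostate cancer cells. The members are all probe sets annotated to a list of gene symbols, which was drawn up with earlier results of these data known: CDH1, CDH2, CDH3, CDH4, CDH6, CDH11, CTNNA1, CTNNA2, CTNNB1 and CTNNAL1. Of these 10 symbols, 9 were annotated to at least 1 probe set, which gave 25 probe sets among the 54613 on the array that are not controls. No probe set carried the symbol CDH4 in the annotation used, and CDH4 was not analysed here.

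PC3-Epi is a luciferase-positive line with epithelial morphology that was selected from PC3, a cell line from a human prostate cancer metastasis, and it was measured on 1 array. After co-culture of PC3-Epi with macrophages, made from CD14+ monocytes with IL-4, mesenchymal populations were isolated, of which PC3-EMT1, PC3-EMT12 and PC3-EMT14 were measured on 1 array each. Cells of PC3-EMT1 and of PC3-EMT14 were further transduced by lentivirus with a scrambled shRNA (Scr, 2 arrays) or with an shRNA against ZEB1 (sh4, 2 arrays). All 8 samples share the PC3 background and growth in RPMI with serum, every line is a single isolated population, and the 4 untransduced samples carry no shRNA. No separate cultures of a line are described, so a p-value here reflects how far single lines and arrays scatter, which may be technical.

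Classical cadherins are calcium-dependent adhesion proteins that bind the same cadherin on a neighbouring cell and form adherens junctions. Their cytoplasmic tail holds β-catenin, β-catenin holds α-catenin, and α-catenin couples the junction to actin filaments. Epithelial cells typically carry E-cadherin and mesenchymal cells N-cadherin, a change of repertoire known as the cadherin switch, and ZEB1 is a zinc-finger repressor known to bind E-box motifs in the CDH1 promoter.

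The 2 sets of arrays stood on different scales. The median probe set lay at log2 4.33 to 4.35 on the untransduced arrays and at 6.19 to 6.23 on the transduced arrays, so levels were compared only within a set. A probe set was tested where at least 1 array exceeded the highest of the 27 bacterial control probe sets in its set, log2 4.56 or 6.00. The targeted gene, ZEB1, read 3.08 in PC3-Epi and 6.50 to 7.12 in the EMT lines, and it differed between sh4 and Scr by -0.74 in PC3-EMT1 and by -1.07 in PC3-EMT14 (limma adjusted p = 0.244). Of 7 markers of the 2 states, 3 were lower in the EMT lines (ESRP1, EPCAM and OVOL2) and 2 were higher (ZEB1 and VIM). The epithelial keratins KRT8 and KRT18 were not called (limma adjusted p = 0.106 and 0.109). Over all probe sets tested, 14.6% were lower and 9.89% were higher. Of 20 macrophage markers measured, 1 or 2 exceeded the control level on each untransduced array and 4 or 5 on each transduced array. Only 2 of them were tested in the EMT lines against PC3-Epi and 5 in sh4 against Scr, and none was called. The summed linear level of all 20 was 278 in PC3-Epi and 272 to 308 in the EMT lines. It was 1010 to 1014 with Scr and 1028 to 1049 with sh4. CD14, CD163 and PTPRC lay under the control level on all 8 arrays, whereas LAPTM5 exceeded it on all 8 and CSF1R, AIF1 and MARCO on the 4 transduced arrays. The arrays measure RNA of whole cultures, so fewer cells of a type and less RNA per cell cannot be told apart.

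The members' levels on every array are shown first, gene by gene.

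**Figure D1:**
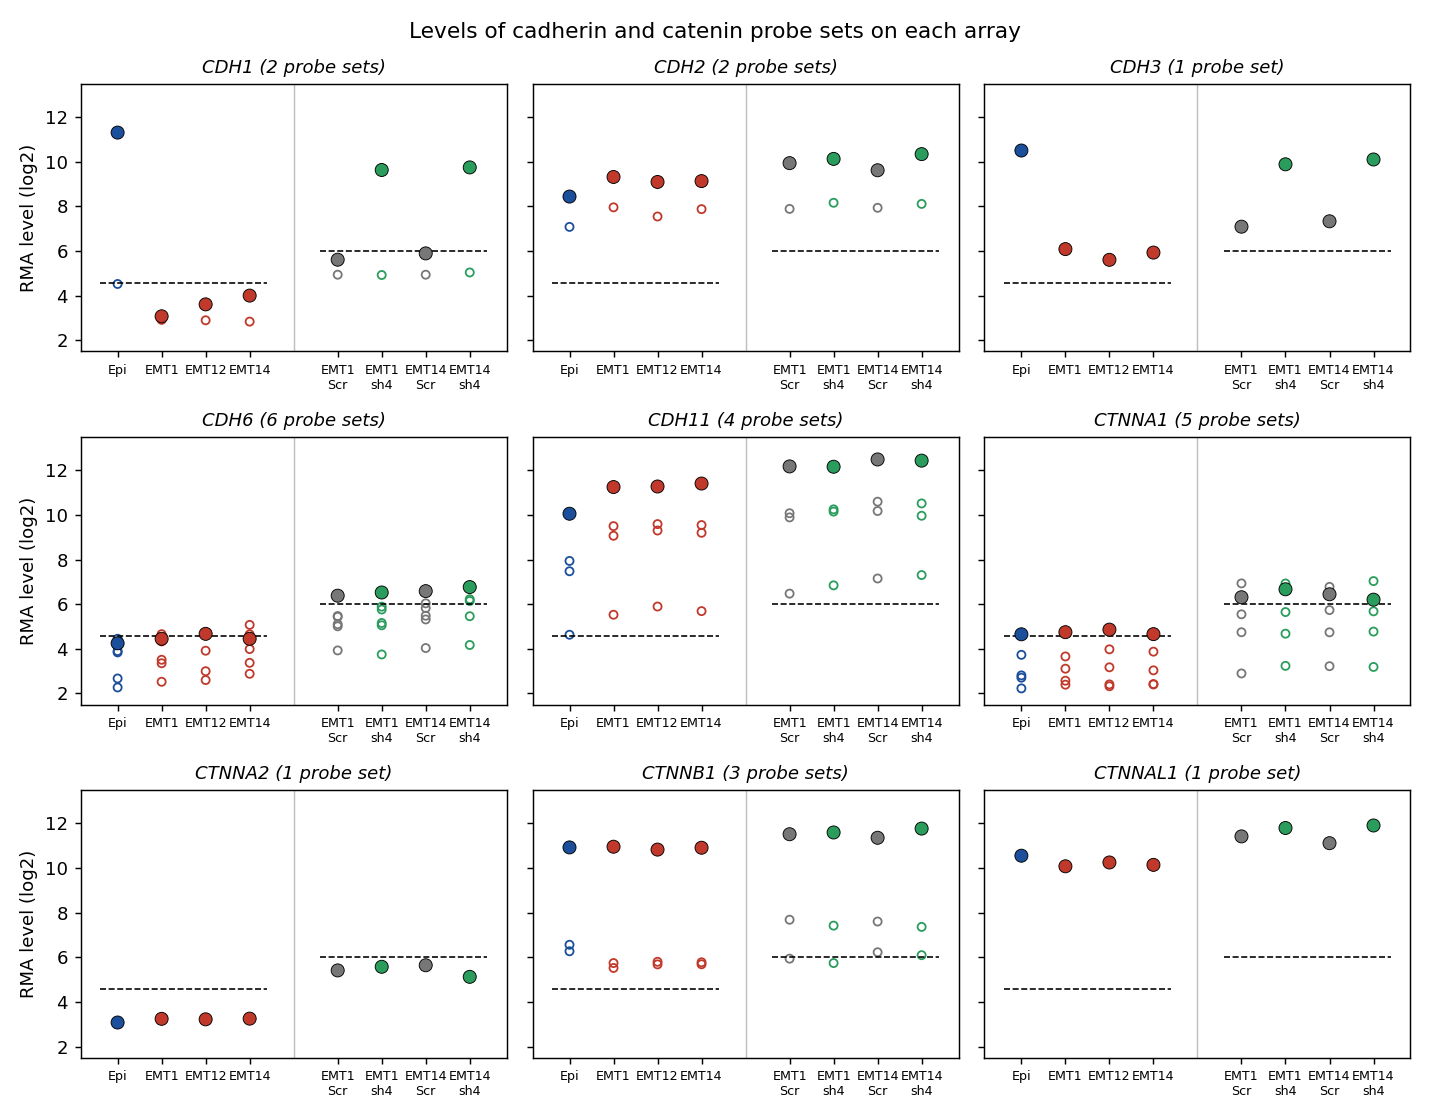
Deposited RMA levels (log2) of all 25 member probe sets on each array, with 1 panel per gene. Filled points are the brightest probe set of the gene and open points its other probe sets; blue is PC3-Epi, red the EMT lines, grey Scr and green sh4. The dashed line is the highest bacterial control of each set (4.56 and 6.00), and the vertical line separates sets that were not compared. CDH1 and CDH3 are low in the 3 EMT lines and in Scr, whereas the brightest CTNNB1 probe set stays near 11 on the untransduced arrays and its 2 dimmer probe sets lie lower in the EMT lines.

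E-cadherin and P-cadherin were the members with the largest differences, lower in every EMT line than in PC3-Epi and higher with sh4 than with Scr in both lines. N-cadherin and cadherin-11 moved up in the EMT lines, by less. With sh4, the N-cadherin probe sets stood above Scr in both lines, and the cadherin-11 probe sets differed in sign. The main fit of sh4 against Scr called no probe set at all, those of E-cadherin and P-cadherin included. The main probe set of β-catenin differed little in either comparison, and α-catenin probe sets lay near or under the control level on the untransduced arrays. On the transduced arrays CTNNA1 210844_x_at and 215883_at exceeded it.

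Among the 16 member probe sets tested in the EMT lines against PC3-Epi, 6 were higher and 4 were lower by limma at an adjusted p under 0.05. These are 37.5% and 25% of the members tested, beside 9.89% higher and 14.6% lower among all 27734 probe sets tested. All 4 probe sets of CDH11 are among the 6, so the share higher counts 1 gene several times. By the brightest probe set of each gene, 8 genes were tested, of which CDH2 and CDH11 were higher, CDH1 and CDH3 were lower, and CDH6, CTNNA1, CTNNB1 and CTNNAL1 were not called. The median difference over the members tested was 0.24 on the log2 scale, and that over all probe sets tested was 0.05. A difference of 2-fold or more in all 3 lines was found for 2 members in the lower direction, where 4.71% of all probe sets did so, and for 3 in the higher direction, where 2.02% did so. The 3 are all probe sets of 1 gene, CDH11.

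CDH1 encodes E-cadherin, the main cadherin of epithelial adherens junctions. Its main probe set, 201131_s_at, read log2 11.31 in PC3-Epi, 3.07 in PC3-EMT1, 3.61 in PC3-EMT12 and 4.00 in PC3-EMT14. The 3 EMT lines (3.56 ± 0.47, SD, n = 3) all lay under the control level, so their order has no meaning. CDH1 fell by 7.74 ± 0.34 on the log2 scale (SE, limma adjusted p = 0.000156). Because the low side is only bounded by the controls, CDH1 was at least 107-fold higher in PC3-Epi than in the EMT lines.

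In the transduced set, CDH1 read 5.61 with Scr and 9.63 with sh4 in PC3-EMT1, and 5.89 with Scr and 9.75 with sh4 in PC3-EMT14. Both Scr arrays lay just under the control level and both sh4 arrays far above it, with no overlap. The paired difference was 3.94 ± 0.12 (4.02 in PC3-EMT1 and 3.85 in PC3-EMT14), at least 13-fold against the control level of log2 6.00. With 1 residual degree of freedom in the 4-array fit, limma gave an adjusted p of 0.0664, which misses the threshold.

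A second CDH1 probe set, 201130_s_at, lay under the control level on all 8 arrays and was not tested. It read 4.52 in PC3-Epi and 2.84 to 2.92 in the EMT lines, and 4.92 to 5.04 on the transduced arrays, where Scr and sh4 overlapped. The CDH1 values therefore rest on 1 probe set.

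CDH3 encodes P-cadherin, a classical cadherin of basal epithelial cells. Its single probe set read 10.50 in PC3-Epi, 6.09 in PC3-EMT1, 5.61 in PC3-EMT12 and 5.93 in PC3-EMT14. All 4 values exceeded the control level. CDH3 fell by 4.63 ± 0.22 (limma adjusted p = 0.000187), a 24.7-fold difference. The highest macrophage marker read 5.57 in PC3-EMT1, 5.23 in PC3-EMT12 and 5.38 in PC3-EMT14. The CDH3 values of the EMT lines may therefore hold background, and the 24.7-fold difference may be an underestimate. In the transduced set it read 7.09 with Scr and 9.88 with sh4 in PC3-EMT1, and 7.33 and 10.10 in PC3-EMT14. The sh4 arrays stood 2.78 ± 0.11 above Scr, or 6.88-fold, and the 2 lines gave almost the same value (2.79 and 2.77). The highest macrophage marker read 6.71 and 7.03 on the 2 Scr arrays, so the Scr values of CDH3 may hold background. The 6.88-fold difference may thus be an underestimate. The limma adjusted p was 0.0692 in the 4-array fit.

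No probe set of the 31363 tested in sh4 against Scr was called by this 4-array fit (0% higher and 0% lower), although 4521 had an unadjusted p under 0.05, so the absence of member calls is not particular to the cadherins. A fit of 6 arrays, which added the untransduced PC3-EMT1 and PC3-EMT14 arrays for a better estimate of the spread, called 0.411% of probe sets higher and 0.316% lower. CDH1 and CDH3 were the 2 members it called, both higher, each with an adjusted p of 0.00107. This fit takes the difference between the 2 lines to be equal in both sets of arrays, which was not tested. The fits that left out a transduced array share this design, and their differences draw on the untransduced arrays as well. Over all 17 alternative fits, the adjusted p ran from 8e-05 to 0.17 for CDH1, which 14 of them called, and from 0.00013 to 0.17 for CDH3, which 12 of them called. By the 2-fold rule in both lines, CDH1 and CDH3 were again the 2 members of 18 tested that were higher, where 0.226% of all probe sets were, and no member was lower, where 0.14% were. The median over the 18 members was 0.22, beside -0.01 over all probe sets tested.

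Set side by side over the 26601 probe sets tested in both comparisons, 1152 were 2-fold or more lower in every EMT line, and 60 of these (5.21%) were 2-fold or more higher with sh4 in both lines. CDH1 and CDH3 are 2 of the 60. CDH1 lay under the control level in the EMT lines and with Scr. Its 2 differences are therefore known only as at least 6.74 and at least 3.69 on the log2 scale. For this reason its place among the 60 was not ranked. CDH3 exceeded the control level on all 8 arrays, although its readings in the EMT lines and with Scr lay close to those of the highest macrophage marker.

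**Figure D2:**
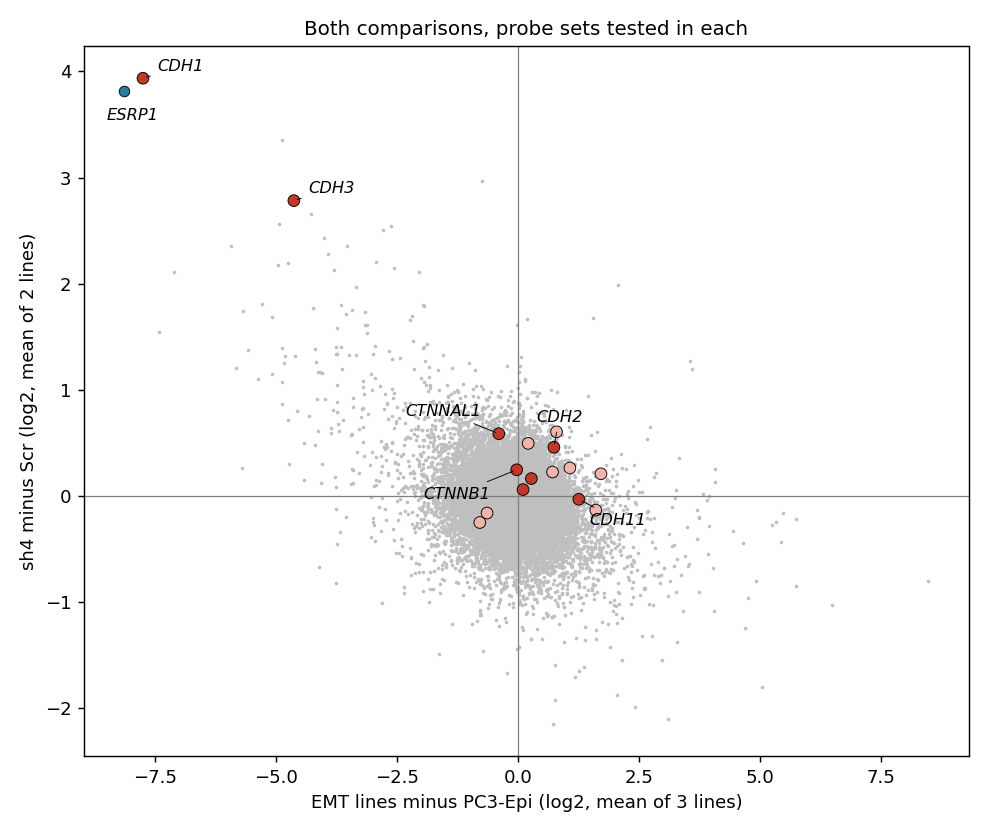
Mean difference of the 3 EMT lines from PC3-Epi (x, log2) against the mean difference of sh4 from Scr over 2 lines (y, log2) for the 26601 probe sets tested in both. Red points are the brightest probe set of each member gene, pale red points their other probe sets, and the blue point is ESRP1. CDH1 (-7.74, 3.94) and CDH3 (-4.63, 2.78) lie at the upper left, apart from the other members.

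The 2 genes are direct neighbours in the RefSeq gene order (GRCh38.p14), where CDH3 precedes CDH1. Of the 12 nearest protein-coding genes around the pair, 11 were measured, and all 11 exceeded the control level on the 4 untransduced arrays. None of them was called lower in the EMT lines, beside 14.6% of all probe sets tested, and 2 were called higher, beside 9.89%. Their differences ran from -0.25 to 0.98. TANGO6, next to CDH1, rose by 0.98 (adjusted p = 0.0108), and HAS3, a hyaluronan synthase, rose by 0.67 (adjusted p = 0.0445). ZFP90, next to CDH3, differed by 0.11 (adjusted p = 0.682). With sh4 the same 11 genes differed from Scr by -0.60 to 0.19, and none reached 2-fold in both lines. The low levels in the EMT lines were thus found at CDH3 and CDH1 and not at the measured genes on either side.

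**Figure D3:**
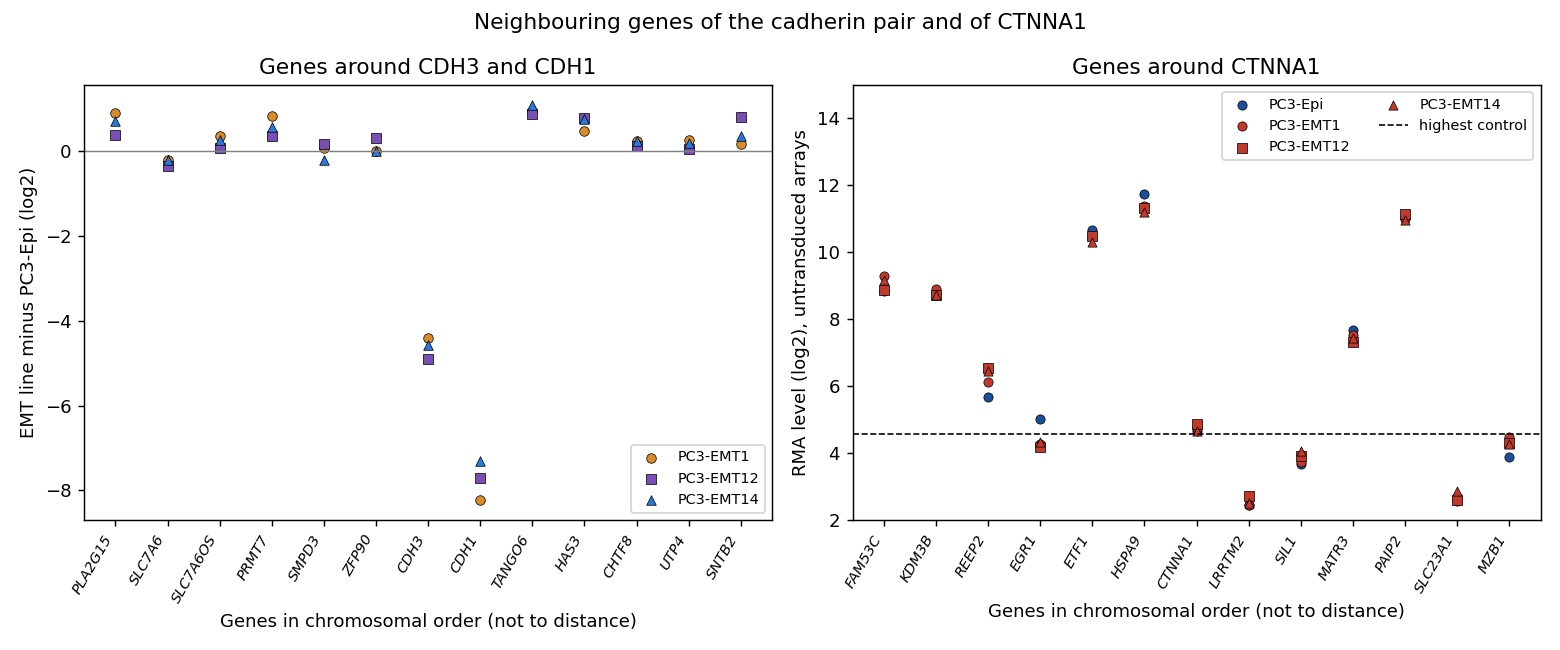
Genes in chromosomal order around CDH3 and CDH1 (left, difference of each EMT line from PC3-Epi, log2) and around CTNNA1 (right, RMA level on the untransduced arrays, log2). The flanking genes on the left lie near 0 while CDH3 and CDH1 lie between -4.42 and -8.23. On the right, CTNNA1, LRRTM2 and SIL1 lie near or under the control level (dashed, 4.56) between brighter genes.

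Profiles were compared over the 5 within-set differences (3 EMT lines and 2 sh4 lines) of 19775 genes. The gene most like CDH1 was the splicing regulator ESRP1, at a root mean squared distance of 0.45. ESRP1 differed from PC3-Epi by -8.22, -8.26 and -7.91 in the EMT lines and from Scr by 3.51 and 4.11 with sh4. The next were S100A14 at 1.56, CALB1 at 1.74, EHF at 2.18 and LSR at 2.26. CDH3 came 8th, at 2.55. The genes most like CDH3 were LSR at 0.44, HOOK1 at 0.49 and MCOLN3 at 0.72, and CDH1 was 164th. In the EMT lines CDH1, ESRP1, CALB1, EHF, HOOK1 and MCOLN3 lay under the control level, and CDH1 and ESRP1 did so with Scr as well. These distances are therefore partly between values at background, and they are given as a description only.

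CDH2 encodes N-cadherin, the classical cadherin of neural and many mesenchymal cells. Its brightest probe set, 203440_at, read 8.44 in PC3-Epi, 9.32 in PC3-EMT1, 9.09 in PC3-EMT12 and 9.13 in PC3-EMT14. PC3-Epi thus already held CDH2 well above the control level, and every EMT line exceeded it. CDH2 rose by 0.74 ± 0.16 (limma adjusted p = 0.0247), or 1.67-fold. The other probe set, 203441_s_at, read 7.08 in PC3-Epi and 7.55 to 7.96 in the EMT lines, and rose by 0.71 ± 0.20 (adjusted p = 0.0482). Without PC3-EMT14 neither probe set was called (adjusted p = 0.0736 and 0.132), and without PC3-EMT1 203441_s_at was not called (adjusted p = 0.0715). The call of 203441_s_at was also lost with no filter (adjusted p = 0.0615) and with cyclic loess (adjusted p = 0.0584).

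With sh4, CDH2 was not lower. The probe set 203440_at read 9.94 with Scr and 10.13 with sh4 in PC3-EMT1, and 9.62 and 10.34 in PC3-EMT14. The 2 sh4 arrays exceeded the 2 Scr arrays, with a difference of 0.46 ± 0.17 that was 0.19 in 1 line and 0.72 in the other (limma adjusted p = 0.350). Its 95% interval ran from -0.01 to 0.92. The other probe set stood 0.22 higher (adjusted p = 0.436). The 2 lines in which CDH1 stood higher with sh4 therefore kept CDH2 at or above its Scr level on these arrays.

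CDH11 encodes cadherin-11, a type II classical cadherin of mesenchyme and bone-forming cells. Its brightest probe set, 207173_x_at, read 10.05 in PC3-Epi, 11.25 in PC3-EMT1, 11.27 in PC3-EMT12 and 11.41 in PC3-EMT14. CDH11 rose by 1.26 ± 0.15 (limma adjusted p = 0.00455), or 2.39-fold. On this probe set the level was already high in the epithelial line. The others read 7.94 (207172_s_at), 7.48 (236179_at) and 4.63 (239286_at) in PC3-Epi, the last just above the control level. The other probe sets rose by 1.61 (207172_s_at, adjusted p = 0.00177), 1.71 (236179_at, adjusted p = 0.00203) and 1.07 (239286_at, adjusted p = 0.0128). On all 4 probe sets each EMT line exceeded PC3-Epi.

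In the transduced set, 207173_x_at read 12.17 with Scr and 12.16 with sh4 in PC3-EMT1, and 12.48 and 12.43 in PC3-EMT14. The difference was -0.03 ± 0.11 (adjusted p = 0.912), with a 95% interval from -0.34 to 0.28. The lines differed on 207172_s_at, where sh4 minus Scr was 0.36 in PC3-EMT1 and -0.63 in PC3-EMT14, and the other 2 probe sets stood 0.21 and 0.26 higher. No change of CDH11 with sh4 was detectable. The interval of its brightest probe set leaves out a fall as large as the rise measured in the EMT lines. That rise was measured in the other set of arrays, which stood on a different scale, so the 2 sizes are not strictly comparable.

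CDH6 encodes cadherin-6, a type II classical cadherin of kidney and nervous tissue. It has 6 probe sets, of which 3 passed the control level in the untransduced set and 4 in the transduced set. The brightest, 210601_at, read 4.25 in PC3-Epi and 4.45 to 4.67 in the EMT lines, around the control level. No CDH6 probe set was called in either comparison. The largest difference was that of 214803_at, which read 3.90 in PC3-Epi, 4.33 in PC3-EMT1, 4.68 in PC3-EMT12 and 5.07 in PC3-EMT14 (0.80 ± 0.28, adjusted p = 0.0851) and stood 0.60 higher with sh4 (adjusted p = 0.281). Without PC3-EMT1 it was called (0.98, adjusted p = 0.0234). Only 2 of its 4 untransduced values exceeded the controls.

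**Figure D4:**
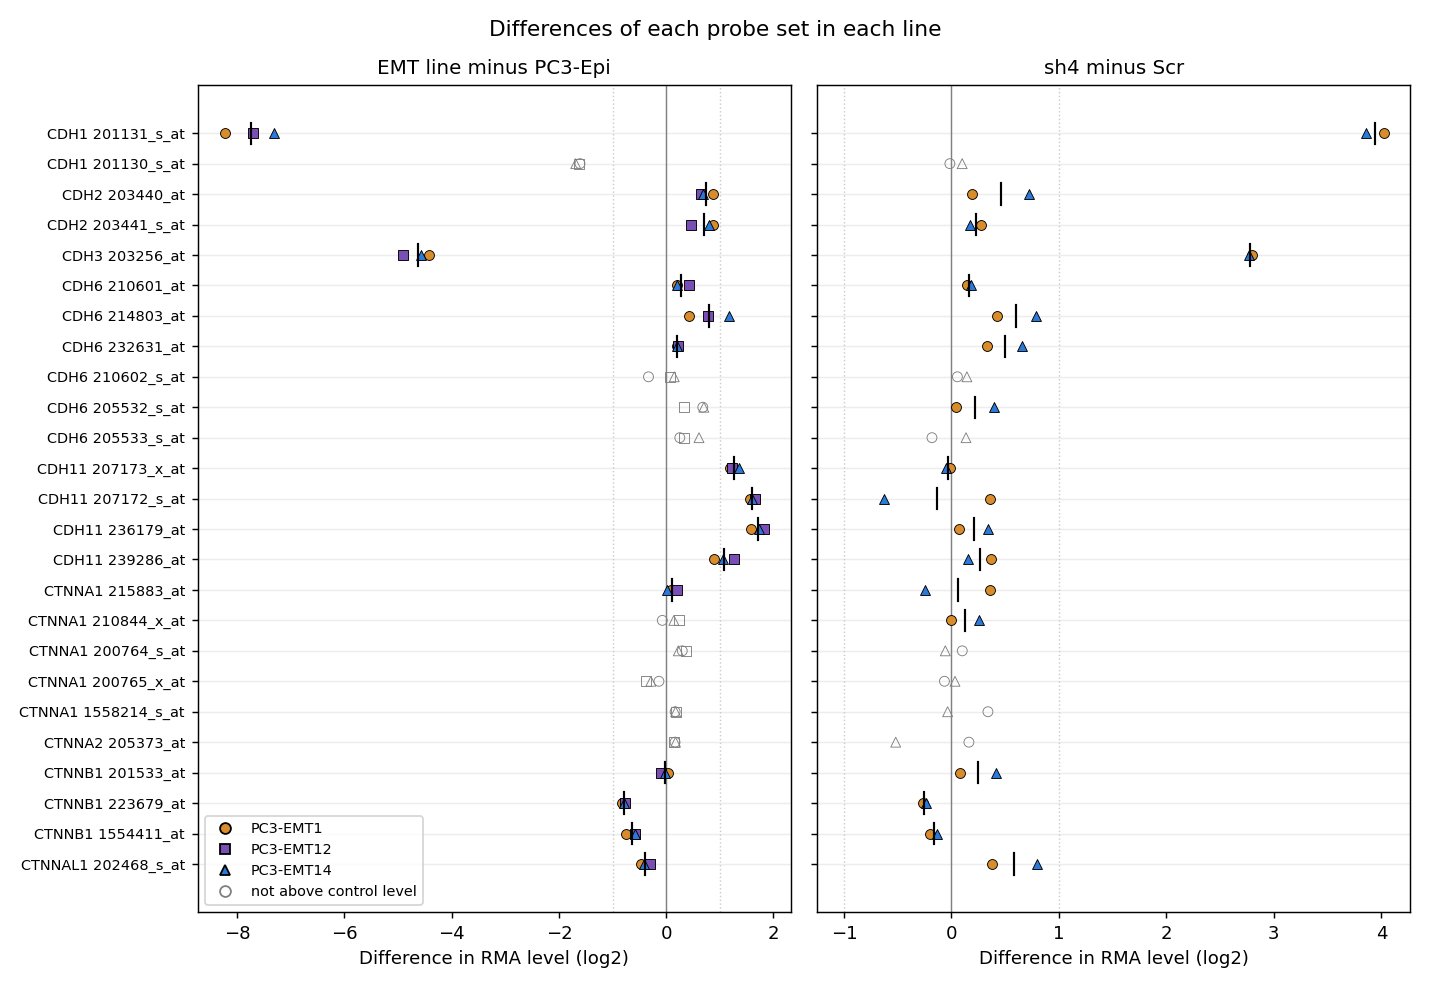
Difference of each member probe set in each line (log2), EMT line minus PC3-Epi on the left and sh4 minus Scr on the right, with a black bar at the mean of tested probe sets. Open grey points are probe sets under the control level on every array of the set, and dotted lines mark 2-fold; the 2 panels have different x ranges. CDH1 201131_s_at and CDH3 stand apart in both panels, the 4 CDH11 probe sets lie right of 0 on the left only, and the CTNNB1 probe sets differ among themselves.

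CTNNB1 encodes β-catenin, which binds the cadherin tail and also serves as the transcriptional effector of Wnt signalling. Its brightest probe set, 201533_at, read 10.93 in PC3-Epi, 10.96 in PC3-EMT1, 10.83 in PC3-EMT12 and 10.91 in PC3-EMT14. The EMT lines lay on both sides of PC3-Epi, with a difference of -0.03 ± 0.15 (limma adjusted p = 0.909) and a 95% interval from -0.39 to 0.34. The interval of 201533_at leaves out a 2-fold change in either direction while CDH1 fell at least 107-fold. The 2 dimmer probe sets did fall. Their 95% intervals ran from -1.14 to -0.44 for 223679_at and from -1.02 to -0.26 for 1554411_at, so both include a 2-fold fall. The probe set 223679_at read 6.56 in PC3-Epi and 5.74 to 5.80 in the EMT lines and fell by 0.79 (adjusted p = 0.0149). The probe set 1554411_at read 6.27 in PC3-Epi and 5.52 to 5.69 in the EMT lines and fell by 0.64 (adjusted p = 0.0328). Without PC3-EMT14 neither was called (adjusted p = 0.0592 and 0.0993), and without PC3-EMT1 the latter was not called (adjusted p = 0.0561). With the mean of the 3 probe sets, CTNNB1 fell by 0.48 (adjusted p = 0.0320). The probe sets of CTNNB1 thus disagreed, and which transcripts each detects was not tested.

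With sh4, CTNNB1 201533_at read 11.52 with Scr and 11.60 with sh4 in PC3-EMT1, and 11.36 and 11.77 in PC3-EMT14, a difference of 0.25 ± 0.14 (adjusted p = 0.465). The dimmer probe sets differed by -0.25 and -0.16 (adjusted p = 0.397 and 0.541). None of these was called.

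CTNNA1 encodes αE-catenin, the link from β-catenin to actin, and PC3 is known as a line that lacks α-catenin protein. Of its 5 probe sets, only 215883_at exceeded the control level of 4.56 in the untransduced set, by little: it read 4.65 in PC3-Epi and 4.66 to 4.86 in the EMT lines. The difference of 0.10 ± 0.16 was not called (adjusted p = 0.650). The other 4 probe sets read 2.23 to 3.98 on the untransduced arrays. In the transduced set 210844_x_at read 6.78 to 7.04, above the control level of 6.00, but the macrophage receptor CSF1R read 6.71 to 6.79 on the same arrays. A level that such a marker shares there does not show expression of CTNNA1.

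The genes next to CTNNA1 were measured beside it. HSPA9, which precedes it, read 11.19 to 11.74 on the untransduced arrays. LRRTM2 and SIL1, the next genes on the other side, read 2.44 to 2.71 and 3.68 to 4.05, under the control level, and the gene after them, MATR3, read 7.32 to 7.67. On the transduced arrays LRRTM2 stayed under the control level, whereas SIL1 read 6.89 to 7.20, above the control level of 6.00 on all 4. The highest macrophage marker read 6.71 to 7.03 on the same arrays, so this level does not show expression of SIL1. Of the 12 nearest protein-coding genes, 7 exceeded the control level on all 4 untransduced arrays and 4 on none. The number of gene copies was not measured on these arrays.

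CTNNA2 encodes αN-catenin, the neuronal form. Its single probe set read 3.08 in PC3-Epi and 3.22 to 3.25 in the EMT lines, and 5.13 to 5.65 on the transduced arrays, under the control level on all 8 arrays. No α-catenin member was therefore called in any comparison.

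CTNNAL1 encodes α-catulin, a relative of α-catenin. It read 10.55 in PC3-Epi, 10.08 in PC3-EMT1, 10.25 in PC3-EMT12 and 10.14 in PC3-EMT14. All EMT lines lay under PC3-Epi, with a difference of -0.40 ± 0.15 that did not pass the test (limma adjusted p = 0.109). In the transduced set it read 11.42 with Scr and 11.80 with sh4 in PC3-EMT1, and 11.12 and 11.91 in PC3-EMT14. The sh4 arrays exceeded the Scr arrays by 0.58 ± 0.15, again without passing the test (adjusted p = 0.295).

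The remaining genes of the junction were taken from lists and described by the brightest probe set of each gene. None of the partner genes was called in sh4 against Scr, by the 4-array or the 6-array fit, so only the EMT lines are described. Of 15 other cadherins measured, from CDH5 of endothelium to CDH26, 4 were tested and none was called (limma, adjusted p under 0.05). The median difference of these 4 was 0.08.

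Of 8 other catenins listed, 7 were measured. No probe set carried the symbol CTNND1, that of p120 catenin, alone in the annotation used, so CTNND1 was not analysed. Of the 7, 1 was higher (14.3%), 1 lower (14.3%) and 5 were not called, with a median of 0.30. The shares over all probe sets, 9.89% higher and 14.6% lower, are set beside these lists. They count every probe set tested, whereas the lists count 1 probe set per gene. JUP encodes plakoglobin, or γ-catenin, which takes the place of β-catenin on the cadherin tail and also serves desmosomes. It read 9.67 in PC3-Epi, 8.59 in PC3-EMT1, 8.45 in PC3-EMT12 and 8.43 in PC3-EMT14, a fall by 1.18 ± 0.16 (limma adjusted p = 0.00555). Among the 7 measured, JUP was the catenin with the largest called difference, and with sh4 it stood 0.19 above Scr (adjusted p = 0.487). CTNND2, a neural catenin of the p120 family, rose by 0.81 ± 0.19 (adjusted p = 0.0294), from 4.75 in PC3-Epi to between 5.37 and 5.75 in the EMT lines, but not without PC3-EMT14 (adjusted p = 0.0859) or with 32 added on the linear scale (adjusted p = 0.0531).

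Of 19 nectins and actin linkers, 3 were lower (15.8%), 1 was higher (5.26%) and 15 were not called, with a median of -0.12, so the shares lay near or under those over all probe sets. AFDN encodes afadin, which ties nectins to actin, and fell by 1.33 ± 0.18 (adjusted p = 0.00577), from 8.59 to between 7.10 and 7.42. TJP1 encodes the scaffold ZO-1, which binds α-catenin, and fell by 1.00 ± 0.19 (adjusted p = 0.0155). LIMA1 encodes EPLIN, an actin-bundling partner of α-catenin, and fell by 0.86 ± 0.17 (adjusted p = 0.0190), but not without PC3-EMT14 (adjusted p = 0.0644). The gene called higher was NECTIN2, a broadly expressed nectin, which rose by 0.55 (adjusted p = 0.0418). Vinculin (VCL), which joins α-catenin under tension, differed by 0.20 (adjusted p = 0.343).

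Of 14 genes of cadherin turnover and cleavage tested, 5 were lower (35.7%, beside 14.6% of all probe sets), 2 higher (14.3%, beside 9.89%) and 7 not called, with a median of -0.19. ADAM10, the protease that sheds the E-cadherin and N-cadherin ectodomains, read 8.92 in PC3-Epi and 7.58 to 7.80 in the EMT lines and fell by 1.19 ± 0.17 (adjusted p = 0.00654). ADAM15, a related protease, went the other way and rose by 1.17 ± 0.15 (adjusted p = 0.00517), from 9.11 to between 10.22 and 10.36. FER, a tyrosine kinase that binds p120 catenin, fell by 0.95 ± 0.23 (adjusted p = 0.0326), but not without PC3-EMT14 (adjusted p = 0.0711).

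Of 15 genes of β-catenin degradation and Wnt targets tested, 3 were lower (20%, beside 14.6% of all probe sets), none was higher (beside 9.89%) and 12 were not called, with a median of 0.15. APC, the scaffold of the β-catenin destruction complex, read 5.98 in PC3-Epi and 4.27 to 4.45 in the EMT lines and fell (adjusted p = 0.00207). All 3 EMT values lay under the control level, so APC was at least 2.68-fold higher in PC3-Epi. RNF43, a ubiquitin ligase that removes Wnt receptors and is itself a Wnt target, fell by 1.14 ± 0.20 (adjusted p = 0.0123). TCF7L2, a DNA-binding partner of β-catenin, fell by 0.85 ± 0.16 (adjusted p = 0.0154). The Wnt target AXIN2 read 4.45 in PC3-Epi and 5.00 to 5.71 in the EMT lines (adjusted p = 0.0520).

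With the mean of all probe sets of a gene in place of the brightest, AFDN (-0.33), CTNND2 (0.66) and APC (-0.56) lay under the control level and were not tested. Among 10 reference genes, such as ACTB and GAPDH, only TFRC, the transferrin receptor, was called and fell by 0.88 (adjusted p = 0.0191), and the differences of the others ran from -0.38 to 0.54.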

How the data were processed

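RNA of 8 cultures was hybridised to Affymetrix arrays with 54675 probe sets, 62 of them controls. The authors made the deposited log2 values with RMA in the affy package, and these were used unchanged. Probe sets with 1 symbol (41091) were named through GEO's platform annotation and matched by Entrez number to RefSeq (GRCh38.p14). Differences were fitted in R 4.3.3 with limma 3.58.1 over all probe sets above the bacterial controls, with Benjamini-Hochberg adjustment. EMT against PC3-Epi used 4 arrays by group, with the lone PC3-Epi array assumed to vary as the EMT lines do. For sh4 against Scr, 4 arrays were fitted with the line as a block. The replicate number is the line number, so it pairs the arrays, and line differences correlated between Scr and sh4 (0.435 over probe sets). The code was tested on simulated data. The members and lists were chosen with earlier results of these data known, and the neighbours and the 2-fold counts after values were seen. Named were all member probe sets, up to 3 called genes per list with the largest differences, and the nearest genes by profile. NECTIN2, VCL, AXIN2, CSF1R and TFRC are named outside this rule, with their values known. The alternatives were filters, normalizations, gene summaries, variance models, blocks and left-out arrays.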

Additional observations from a re-analysis of the deposited data

Results flagged for a closer look

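2 results differed in sign between lines. CTNNA1 215883_at differed between sh4 and Scr by 0.36 in PC3-EMT1 and by -0.24 in PC3-EMT14, so the difference between the lines was -0.60. CTNNB1 201533_at differed from PC3-Epi by 0.03 in PC3-EMT1 and by -0.10 in PC3-EMT12, a difference of 0.13. Each line has 1 array per condition, and neither difference between lines was tested.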

How the results depend on the processing

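In the EMT lines against PC3-Epi, the falls of CDH1 (-7.96 to -4.69) and CDH3 (-4.74 to -4.03) and the rise of CDH11 207173_x_at (1.18 to 1.41) passed the test under all 14 alternatives. All probe sets called numbered 6787, and 3282 to 9077 when 1 EMT line was left out (3282 without PC3-EMT14, 9077 without PC3-EMT12). Members called numbered 10, and 6 to 10 (6 without PC3-EMT14). With 1 value per gene, fewer features were tested: 3560 of all genes and 4 members were called with the brightest probe set, 3361 and 5 with the mean. Only without PC3-EMT12 did the sign of CTNNB1 201533_at change (-0.0554 to 0.00886 over the left-out lines).

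In sh4 against Scr, limma called 0 probe sets and 0 members. The alternatives called 6 of all features with a filter at log2 7, 4 with the brightest probe set, 27 with the mean of probe sets, 31 with quantile normalization, 10 with cyclic loess, 47 with median centring and 4 with 32 added on the linear scale. In each of these, 2 members were called, CDH1 and CDH3. A variance trend called 2 features and 1 member, and the fit without the replicate block 1 feature and 1 member (CDH1). The fit of 6 arrays with the replicate block called 228 and 2, and leaving out 1 of its transduced arrays gave 39 to 851, with 2 members each time. No filter, a filter at log2 5 and robust eBayes called 0. Over the 17 alternatives the adjusted p of CDH1 ran from 8e-05 to 0.17 and that of CDH3 from 0.00013 to 0.17. The mean of probe sets turned the sign of CDH11 (0.0751) and CTNNB1 (-0.0567). Left-out arrays turned uncalled values of CTNNA1 215883_at (-0.186 to 0.302), CTNNA1 210844_x_at (-0.0313 to 0.285), CDH11 207172_s_at (-0.547 to 0.276) and CDH11 207173_x_at (-0.0815 to 0.0149). Over named probe sets tested both in the fit reported and in the alternative, 327 of 342 values in the EMT lines and 242 of 276 in sh4 against Scr kept their sign and their side of the threshold. Of values of probe sets not tested in both, 1 of 130 and 14 of 117 changed sign. The line as a random block was not run, since its correlation could not be estimated from 4 arrays. The cause of these changes was not tested.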
